A study of Mus musculus with 3 samples.

Results

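H19 and 9 other imprinted growth genes were examined in mouse cardiac fibroblasts and in the induced cardiomyocytes (iCMs) made from them. The 10 members are H19, Igf2, Meg3, Rian, Dlk1, Peg3, Plagl1, Cdkn1c, Grb10 and Mest. They were taken by gene symbol from 54532 genes, and all 10 had a row in the gene count and FPKM tables. H19 was picked because it was one of the largest falls in the GMTMS library, so its values in that comparison are a description and carry no weight as a test. The other members were listed with results of these libraries known.

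The study asked which factors turn fibroblasts of an injured heart into cardiomyocyte-like cells, and 3 RNA-seq libraries were available, 1 per condition. MICFs are cardiac fibroblasts isolated from adult Myh6-mCherry mice 5 days after myocardial infarction, and their library was from cells kept 4 weeks in culture without virus. GMTMS-iCMs are such cells 4 weeks after transduction with Gata4, Mef2c, Tbx5, Myocd and Sall4. GMTMM-iCMs were to have received Mesp1 in place of Sall4. Both iCM libraries were made from mCherry-positive cells, sorted on a reporter driven by the Myh6 promoter, and each was a mixture of 5 sorted samples. Doxycycline at 1 µg/ml was in the induction medium. The fibroblast column of the tables carries an abbreviation that was read as cardiac myofibroblasts, and it was assigned to MICFs because the other columns name the cocktails.

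Imprinted genes are expressed mainly from the allele of 1 parent, set by DNA methylation that differs between the parental chromosomes. Several act on fetal growth, and many of them are shut down after birth in most organs. H19 is a long non-coding RNA expressed from the maternal chromosome, next to the paternally expressed growth factor gene Igf2. The same insulator region, bound by CTCF on the maternal copy, governs which of the pair is transcribed. Meg3 and Rian are maternally expressed non-coding RNAs of the Dlk1-Dio3 cluster, in which Dlk1 is expressed from the paternal copy. Cdkn1c encodes the cyclin-dependent kinase inhibitor p57, and Grb10 an adaptor that dampens insulin and insulin-like growth factor receptor signalling. Plagl1 and Peg3 encode zinc finger proteins expressed from the paternal allele, and Mest encodes a paternally expressed membrane protein of the alpha/beta hydrolase family.

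The MICF library held 11861773 counts, that of GMTMS-iCMs 10624118 and that of GMTMM-iCMs 11904484. Below, 3 values given without names stand for MICFs first, GMTMS-iCMs second and the GMTMM library last. In the GMTMM library, Sall4 had 1060 counts and Mesp1 had 0, and Mesp1 was at 0 in the other libraries as well, so that library is called by its label throughout, as the GMTMM-labelled library. Cardiomyocyte markers summed to 2.68 FPKM in MICFs, with 6 of 12 at 0, against 1429 in GMTMS-iCMs and 532.3 in the GMTMM-labelled library. The 11 macrophage markers were high in every library labelled as fibroblasts or iCMs, with summed FPKM of 9852, 20410 and 9580 in the same order. Y-linked genes had 0, 1630 and 1926 counts over 4 genes, and Xist had 11855, 5279 and 1618. The part of these differences in the results below was not tested.

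With 1 library per condition there is no replicate error and no p-value. Levels are given as FPKM (fragments scaled to transcript length and library size) with exact 95% Poisson intervals on the counts, and a fold is a ratio of these levels, with an interval by the Clopper-Pearson method at the same 95%. Both intervals cover counting error only. A difference is that of quantile-normalized log2(FPKM + 1), and a gene is called higher or lower when the difference exceeds 1 in size. This scale understates the change of genes with low FPKM. Its quantile step can also shift abundant genes away from their FPKM ratio. The macrophage marker Lyz2 was 1.85-fold higher in GMTMS-iCMs than in MICFs by FPKM, at a difference of 0. In these bulk samples, fewer cells of a type and less RNA per cell cannot be told apart.

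H19 was the most abundant member in MICFs and was nearly lost in GMTMS-iCMs. Its gene lies on the minus strand of chromosome 7 (chr7:142575529-142578143, GRCm38), and its exons add up to 2460 bases. H19 had counts of 2736, 22 and 328. As levels, these are 77.3 FPKM (74.4 to 80.3), 0.963 (0.603 to 1.46) and 11.4 (10.2 to 12.7). The 3 intervals lie far apart, with MICFs highest and GMTMS-iCMs lowest. H19 was 80.3-fold lower in GMTMS-iCMs than in MICFs (52.9 to 128), and 6.77-fold lower in the GMTMM-labelled library (6.04 to 7.62). By FPKM it ranked 429 among all genes in MICFs, 4077 in the GMTMM-labelled library and 12024 in GMTMS-iCMs. Its difference of -5.69 between GMTMS-iCMs and MICFs had rank 5 from the largest fall among 15020 genes with over 10 counts in either library, between Igfbp3 (-5.69) and Sox18 (-5.56).

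H19 is also the host of a microRNA, shown here because the mature products lie inside the transcript that fell. Capitals mark the seed, bases 2 to 8, and the sequences are those of RefSeq (GRCm38.p6), within chr7:142577078-142577133 on the minus strand.
miR-675-5p: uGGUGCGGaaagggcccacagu
miR-675-3p: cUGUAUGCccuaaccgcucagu
The count row of the hairpin gene Mir675 was at 0 in each library, which allows up to 3 counts. The row lies in an H19 exon, the libraries were of total RNA prepared by a standard protocol, and nothing follows from it about the mature microRNA.

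**Figure D1:**
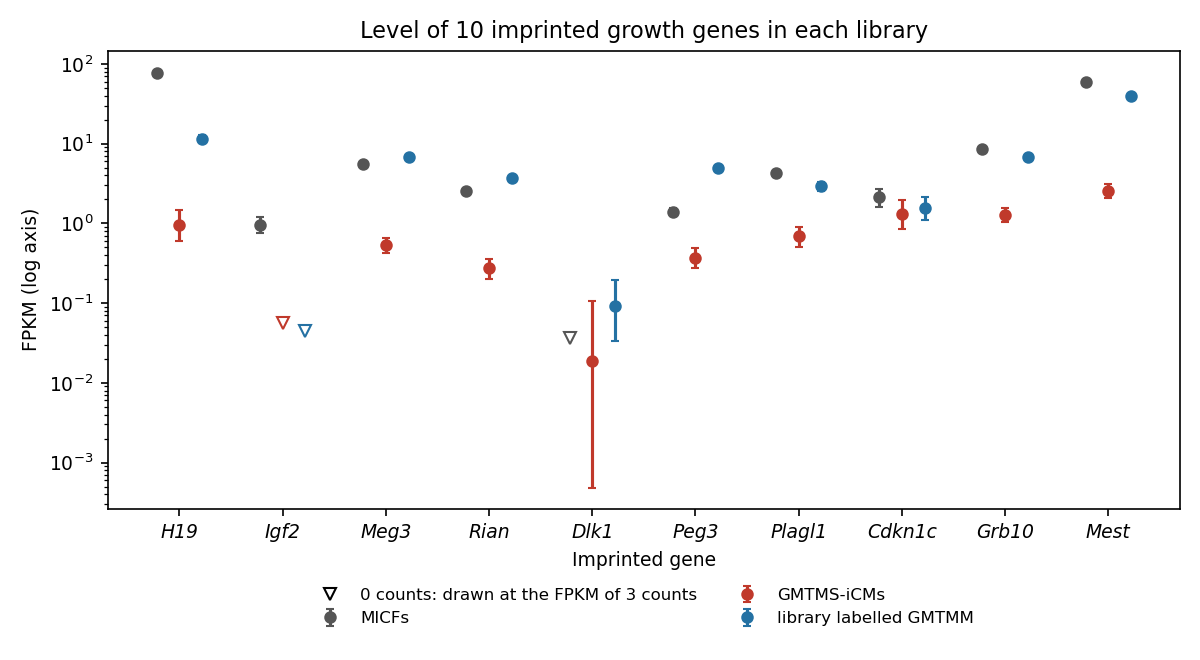
FPKM (log axis) of the 10 imprinted genes in MICFs, GMTMS-iCMs and the GMTMM-labelled library; points are levels, bars are exact 95% Poisson intervals of counting error, and open triangles mark 0 counts, drawn at the FPKM of 3 counts. By level, GMTMS-iCMs are lowest for 8 of the members, with the exceptions of Igf2, at 0 in both iCM libraries, and Dlk1, which had at most 6 counts anywhere. The MICF triangle of Dlk1, at 0 counts, is drawn above its GMTMS-iCMs point of 1 count.

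Igf2, the growth factor gene next to H19 (chr7:142650766-142666816, minus strand), was low in MICFs and was not detected in either iCM library. It had 79 counts in MICFs, 0.959 FPKM (0.760 to 1.20), and 0 counts in either iCM library. Against a floor of 3 counts per library it was at least 17-fold lower in GMTMS-iCMs and at least 21.4-fold lower in the GMTMM-labelled library. These limits rest on the floor and leave out counting error. On the log2 scale the differences were -0.93 and -0.93, just short of the threshold, since the level in MICFs was itself near 1 FPKM. With a pseudocount of 0.1 the difference in GMTMS-iCMs was -3.33. Igf2 shares 62.8% of its exon bases with Gm49394 on the same strand, so the reads of these genes may have been split or set aside.

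Mest was the second most abundant member in MICFs and the member with the second largest fall in GMTMS-iCMs. It lies at chr6:30723547-30748465 on the plus strand. Its counts were 3357, 94 and 1829, or 59.1 FPKM (57.2 to 61.2), 2.57 (2.07 to 3.14) and 39.7 (37.9 to 41.5). GMTMS-iCMs stood far below the others, which were of the same order. Mest was 23.1-fold lower in GMTMS-iCMs than in MICFs (18.8 to 28.6), with a difference of -4.36, rank 28 of the 15020 genes from the largest fall. The GMTMM-labelled library had 1.49-fold less Mest than MICFs (1.41 to 1.58), and the difference was -1.05, just past the threshold, or -0.56 without quantile normalization. Opposite-strand exons of Copg2 cover 23.1% of the Mest exon bases, and the handling of strand is not given in the sources used here, and Copg2 had 832, 373 and 506 counts. The part of Copg2 reads in the Mest values was not tested.

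Mest hosts miR-335 between its exons (chr6:30741314-30741375, plus strand), and its mature products are shown with the seed in capitals, to set beside those of H19.
miR-335-5p: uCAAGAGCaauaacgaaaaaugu
miR-335-3p: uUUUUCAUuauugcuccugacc
The hairpin gene Mir335 had 5 counts in MICFs and 0 in each iCM library. No 2 of the 15 mature microRNAs that RefSeq places inside the members shared a seed.

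H19 and Mest together made up 84.3% of the summed FPKM of the 10 members in MICFs, 44.1% of that in GMTMS-iCMs and 65.7% of that in the GMTMM-labelled library. That sum was 161.8, 8.01 and 77.8 FPKM.

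The non-coding RNAs of the Dlk1-Dio3 cluster were low in GMTMS-iCMs but not in the GMTMM-labelled library. Meg3 (chr12:109541001-109571726, plus strand) had counts of 1428, 89 and 1423, or 5.49 FPKM (5.21 to 5.78), 0.530 (0.425 to 0.652) and 6.73 (6.39 to 7.09). Rian (chr12:109603940-109661716, plus strand) had 674, 46 and 784 counts, or 2.57 FPKM (2.38 to 2.77), 0.272 (0.199 to 0.362) and 3.68 (3.43 to 3.95). For each RNA the level in GMTMS-iCMs lay apart from the other libraries. Meg3 was 10.4-fold lower in GMTMS-iCMs than in MICFs (8.36 to 13.0) and Rian 9.46-fold lower (7.01 to 13.0). The differences were -2.04 and -1.42.

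Against MICFs, the GMTMM-labelled library had 1.23-fold more Meg3 (1.14 to 1.32) and 1.43-fold more Rian (1.29 to 1.59), with differences of 0.21 and 0.40 that did not reach the threshold. The direction for Meg3 flipped to -0.01 when counts were scaled to the library total. The level of Rian per level of Meg3 was alike in the 3 libraries, at 0.468, 0.513 and 0.547. Mirg, a further maternally expressed RNA that starts 188.76 kb downstream of the Meg3 start, had 28, 1 and 36 counts, the same order of libraries. Dlk1, which encodes a transmembrane relative of the Notch ligands (chr12:109452823-109463336, plus strand), had 0, 1 and 6 counts. Its row was therefore at or near the floor of 3 counts in MICFs and GMTMS-iCMs. Set against an assumed 3 counts in MICFs, the 6 counts in the GMTMM-labelled library give a ratio of 2.46. That ratio leaves out counting error, and the intervals overlap (0.0333 to 0.198 FPKM, against up to 0.0453 in MICFs).

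Grb10, the receptor adaptor (chr11:11930508-12038683, minus strand), had counts of 1133, 108 and 719, or 8.66 FPKM (8.17 to 9.18), 1.28 (1.05 to 1.54) and 6.77 (6.29 to 7.29). It was 6.77-fold lower in GMTMS-iCMs than in MICFs (5.55 to 8.33; difference -2.06). For the GMTMM-labelled library the fold was 1.28, again lower (1.16 to 1.41), a difference of -0.40 that was not called. Again GMTMS-iCMs stood apart, and the other libraries were near each other.

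Plagl1, a zinc finger transcription factor known to act on other imprinted genes (chr10:13060504-13131694, plus strand), had 476, 50 and 267 counts. Its levels were 4.23 FPKM (3.86 to 4.63), 0.688 (0.511 to 0.908) and 2.92 (2.58 to 3.30). GMTMS-iCMs were 6.14-fold below MICFs (4.58 to 8.40), with a difference of -1.56. The GMTMM-labelled library lay 1.45-fold below MICFs (1.24 to 1.69), and the difference of -0.42 was not called.

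Peg3, the other zinc finger gene (chr7:6703892-6730431, minus strand), was the 1 member called higher in an iCM library. It had counts of 266, 46 and 771, or 1.39 FPKM (1.23 to 1.56), 0.372 (0.272 to 0.496) and 4.95 (4.61 to 5.32). The GMTMM-labelled library was the highest of the 3 and GMTMS-iCMs the lowest. Against MICFs, Peg3 was 3.57-fold higher in the GMTMM-labelled library (3.10 to 4.12; difference 1.33). In GMTMS-iCMs it was 3.73-fold lower than in MICFs (2.72 to 5.22), a difference of -0.71 that was not called on the log2 scale with a pseudocount of 1. With a pseudocount of 0.1 it was -1.46.

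Cdkn1c, the kinase inhibitor gene (chr7:143458339-143461050, minus strand), had the smallest ratio of its highest to its lowest level among the 8 members detected in every library. Between the GMTMM-labelled library and MICFs alone, the folds of Meg3 (1.23) and Grb10 (1.28) were smaller than that of Cdkn1c. Its counts were 62, 25 and 37, or 2.11 FPKM (1.62 to 2.71), 1.32 (0.854 to 1.95) and 1.55 (1.09 to 2.14). These 3 intervals overlap. The ratio of MICFs to GMTMS-iCMs was 1.60 (0.991 to 2.66) and that of MICFs to the GMTMM-labelled library was 1.36 (0.891 to 2.10), so no difference was detectable at this depth. Of the Cdkn1c exon bases, 30.7% lie opposite exons of another gene.

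**Figure D2:**
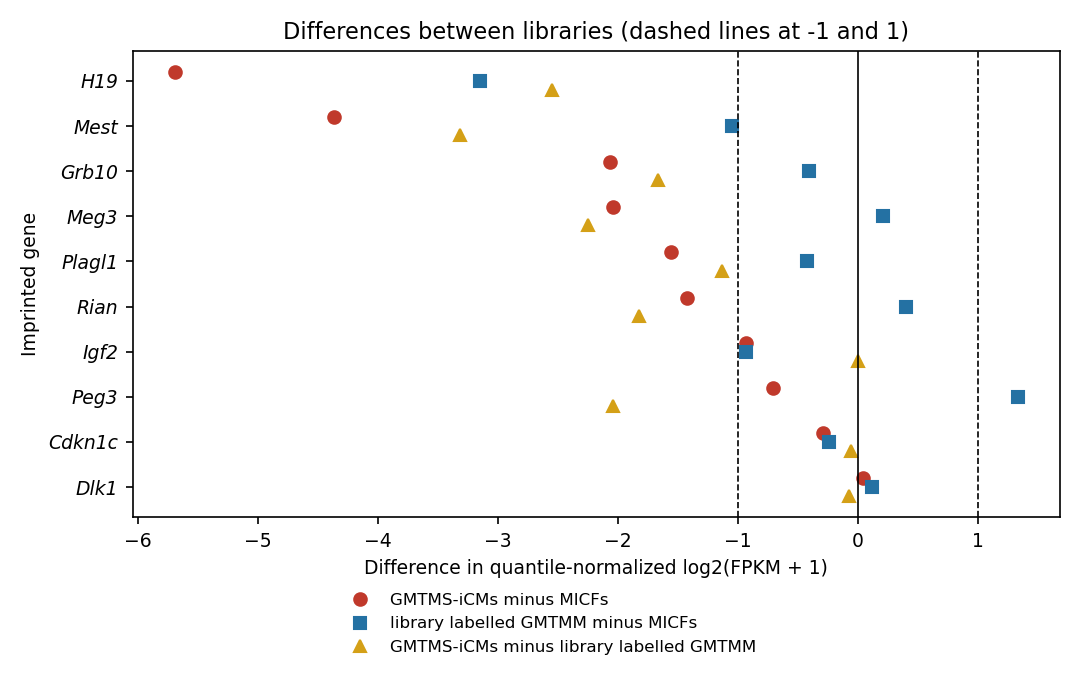
Differences in quantile-normalized log2(FPKM + 1) of the 10 imprinted genes for each pair of libraries; dashed lines mark the threshold of 1 in either direction. For GMTMS-iCMs minus MICFs the points run from -5.69 for H19 to 0.04 for Dlk1, whereas for the GMTMM-labelled library minus MICFs they run from -3.14 for H19 to 1.33 for Peg3.

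Counted over the list, 6 of 10 members were called lower in GMTMS-iCMs than in MICFs (H19, Mest, Grb10, Meg3, Plagl1 and Rian) and 0 were called higher. The background was 2.72% of all genes called lower and 3.13% called higher. Among genes with over 10 counts in either library, it was 9.05% and 9.29%. Of the members, 9 passed that minimum, Dlk1 being the exception. Since H19 was chosen on this contrast, the count describes the list and no more. The median difference of the members was -1.49 over all 10 and -1.56 over the 9 with over 10 counts. Over the 15020 genes with over 10 counts the median was -0.08.

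Between the GMTMM-labelled library and MICFs, 2 of 10 members were called lower (H19 and Mest) and 1 was called higher (Peg3). Here 1.30% of all genes were called lower and 2.12% higher, or 3.61% and 6.55% of genes with over 10 counts. The median difference of the members was -0.32 over all 10 and -0.40 over the 9 with over 10 counts. Over 15167 genes with over 10 counts the median was -0.09. This comparison and the one before it share the MICF library, so they are not independent of each other.

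Between the iCM libraries, 7 of 10 members were called lower in GMTMS-iCMs (H19, Mest, Meg3, Peg3, Rian, Grb10 and Plagl1) and 0 higher. The background was 2.84% of all genes lower and 2.33% higher, or 9.60% and 6.40% of genes with over 10 counts. The folds, each lower in GMTMS-iCMs, were 15.5 for Mest (12.6 to 19.2), 13.6 for Rian (10.1 to 18.7) and 13.3 for Peg3 (9.89 to 18.4). They were 12.7 for Meg3 (10.3 to 15.9) and 11.8 for H19 (7.70 to 19.2). The counting intervals of these 5 folds overlap, so the order among them was not resolved. Grb10 at 5.29-fold (4.32 to 6.54) and Plagl1 at 4.25-fold (3.13 to 5.87) formed a lower pair. Cdkn1c at 1.18-fold (0.690 to 2.04) was not distinguishable from no difference. Igf2 had no counts on either side, and Dlk1 had 1 count against 6, a ratio of 4.77 (0.579 to 219).

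The order of the members by level therefore differed between the libraries. In MICFs it ran from H19 through Mest, Grb10, Meg3, Plagl1, Rian, Cdkn1c, Peg3 and Igf2 down to Dlk1, with neighbours apart beyond counting error except Rian and Cdkn1c. In GMTMS-iCMs, Mest led, and the counting intervals of Cdkn1c, Grb10 and H19, the next in order, overlapped. The order in the GMTMM-labelled library was Mest, H19, Grb10, Meg3, Peg3, Rian, Plagl1, Cdkn1c, with Grb10 and Meg3 level at 6.77 and 6.73 FPKM.

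Expressed as a share of the MICF level, the members could be set beside the marker genes of the cell types that the cultures might hold. In GMTMS-iCMs, H19 stood at 1.25% of its MICF level, Mest at 4.34%, Meg3 at 9.66%, Rian at 10.6%, Grb10 at 14.8%, Plagl1 at 16.3%, Peg3 at 26.8% and Cdkn1c at 62.5%. All 12 endothelial markers were also lower there, from 1.13% of MICFs for Egfl7 to 25.1% for Eng, with a median of 2.54%. The 12 fibroblast markers ranged from 7.49% for Tcf21 to 71.6% for Vim, with a median of 16.6%, and all 12 were called lower. The difference of Vim was -1.30 on the quantile-normalized scale, a larger fall than its FPKM share gives. H19 lay below all 12 fibroblast markers and below 11 of the 12 endothelial ones. Meg3, Rian, Grb10 and Plagl1 lay within the range of each list.

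The same markers were set beside the members in the GMTMM-labelled library. H19 stood at 14.8% of its MICF level, below all 12 endothelial markers (24.4% for Vwf to 160% for Flt1, median 82.7%) and below all 12 fibroblast markers (114% for Tcf21 to 292% for Postn, median 164%). Peg3, at 357%, was above 12 of 12 markers of each list. Mest at 67.1%, Plagl1 at 69.1%, Cdkn1c at 73.5% and Grb10 at 78.2% lay inside the endothelial range and below all fibroblast markers. Meg3 at 123% and Rian at 143% were inside both ranges.

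The mural and macrophage markers took another course. The 8 mural markers ran from 6.31% of MICFs for Kcnj8 to 411% for Myh11 in GMTMS-iCMs (median 160%), and from 135% for Pdgfrb to 411% for Rgs5 in the GMTMM-labelled library (median 236%). Peg3 at 357% therefore lay inside the mural range in that library, above 7 of the 8. The 11 macrophage markers ran from 185% for Lyz2 to 1420% for Cd14 in GMTMS-iCMs (median 216%), above all members there with a level in MICFs. They ran from 73.3% for Csf1r to 644% for Cd14 in the GMTMM-labelled library (median 92.4%), with Cd14 alone above Peg3. H19 lay below all markers of both lists in each library.

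**Figure D3:**
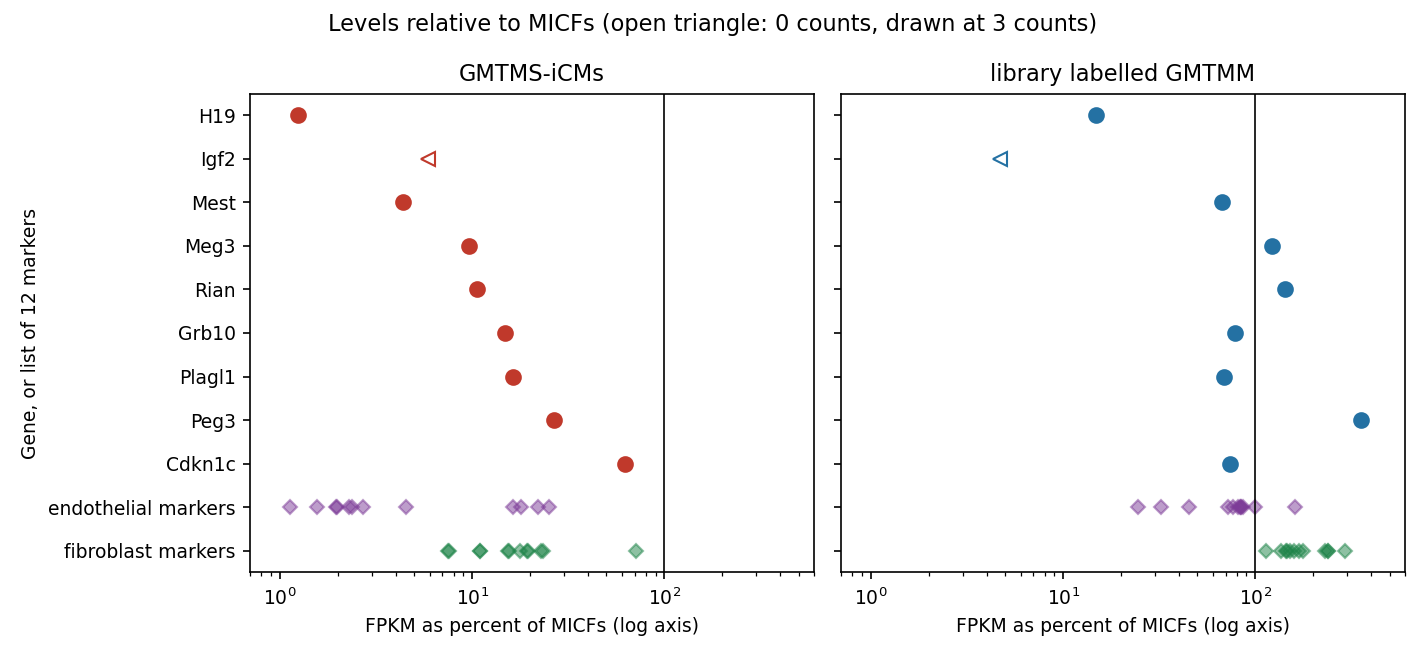
FPKM as a percent of the MICF level (log axis) for 9 imprinted genes, each drawn as 1 point, and for the 12 endothelial and 12 fibroblast markers, drawn as diamonds; the line marks 100% and the open triangle marks Igf2, with 0 counts, at the level of 3 counts. H19 is left of all fibroblast markers in both panels, at 1.25% and 14.8%, and Peg3 is right of all diamonds in the GMTMM-labelled library at 357%.

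As summed FPKM, the endothelial markers came to 613.3, 36.7 and 463.8, with none of the 12 at 0. The fibroblast markers came to 2996, 647.5 and 5166. H19 as a share of the summed endothelial level was 12.6%, 2.63% and 2.46%, so that ratio was near equal in the iCM libraries and higher in MICFs. The share for Mest was closer across the libraries, at 9.64%, 7.00% and 8.56%. That for Meg3 was 0.894%, 1.44% and 1.45%. Per summed fibroblast level, H19 was 2.58%, 0.149% and 0.221%. The part of cell composition in the levels of the members was not tested.

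**Figure D4:**
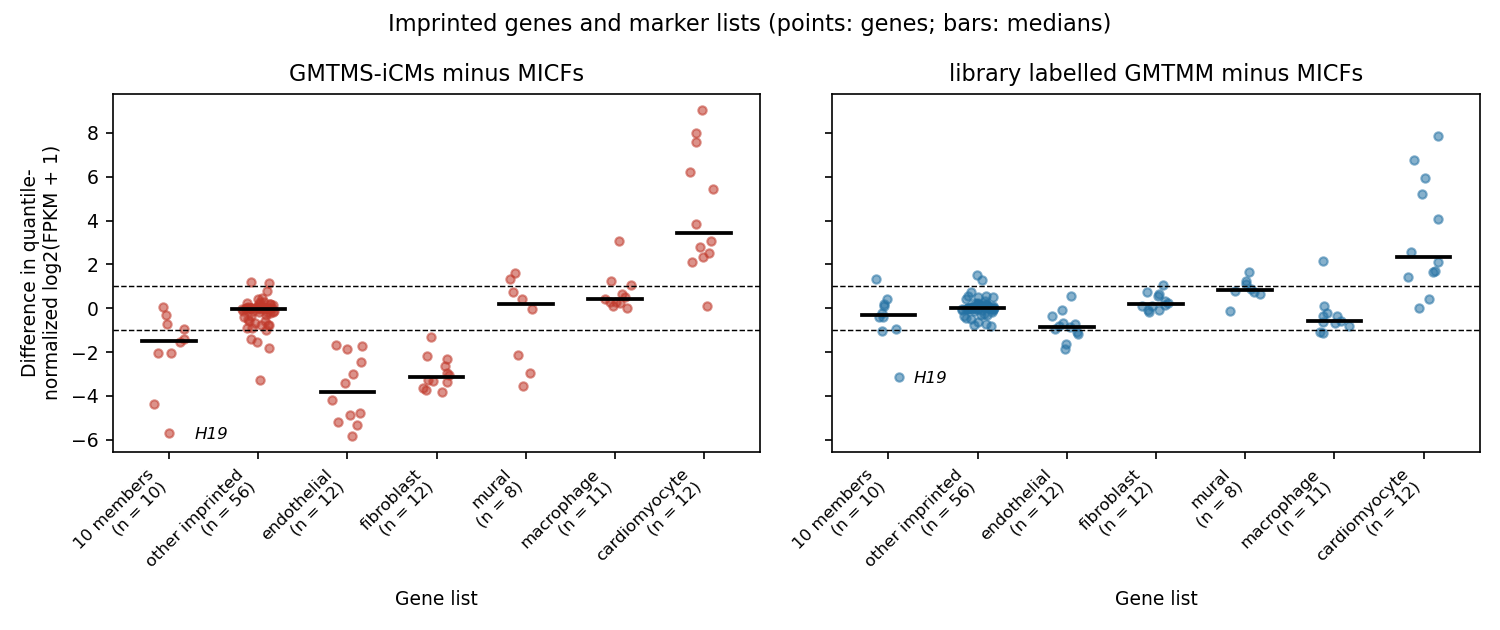
Differences in quantile-normalized log2(FPKM + 1) against MICFs for the 10 members, 56 other imprinted genes and 5 lists of cell type markers; each point is a gene, bars are medians, and dashed lines mark 1 in either direction. In GMTMS-iCMs the members have a median of -1.49 and the other imprinted genes -0.01, while the endothelial and fibroblast markers have medians of -3.81 and -3.15; in the GMTMM-labelled library the H19 point at -3.14 is the lowest of all lists.

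Within 200 kb of H19, no neighbour fell by as much as H19 on the log2(FPKM + 1) scale. By fold, Igf2 lay further below its MICF level than H19 in the GMTMM-labelled library (at least 21.4-fold against 6.77-fold), and the differences there were -5.09 and -2.78 in TMM-scaled log2 CPM (counts relative to library size, scaled by the trimmed mean of M-values). Of 21 genes annotated within 200 kb, 8 had over 10 counts in any library, H19 and Igf2 among them. Mrpl23, a mitochondrial ribosomal protein gene whose start is 45.46 kb from that of H19, had 206, 175 and 223 counts, with differences of 0.42 and 0.34 from MICFs. Prr33, annotated as a lincRNA at 71.37 kb, was the neighbour nearest to H19 in direction, with 65, 1 and 9 counts and differences of -1.41 and -1.09. Tnnt3, the fast skeletal troponin T gene at 79.31 kb, had 16, 13 and 48 counts and was called higher in the GMTMM-labelled library (1.07). Lsp1, a leukocyte actin-binding protein gene at 117.33 kb, had 267, 108 and 576 counts, differences of -0.37 and 1.20. Syt8 (20, 21 and 8 counts) and Ctsd, the cathepsin D gene (32999, 29306 and 21891 counts), were not called in either comparison with MICFs.

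**Figure D5:**
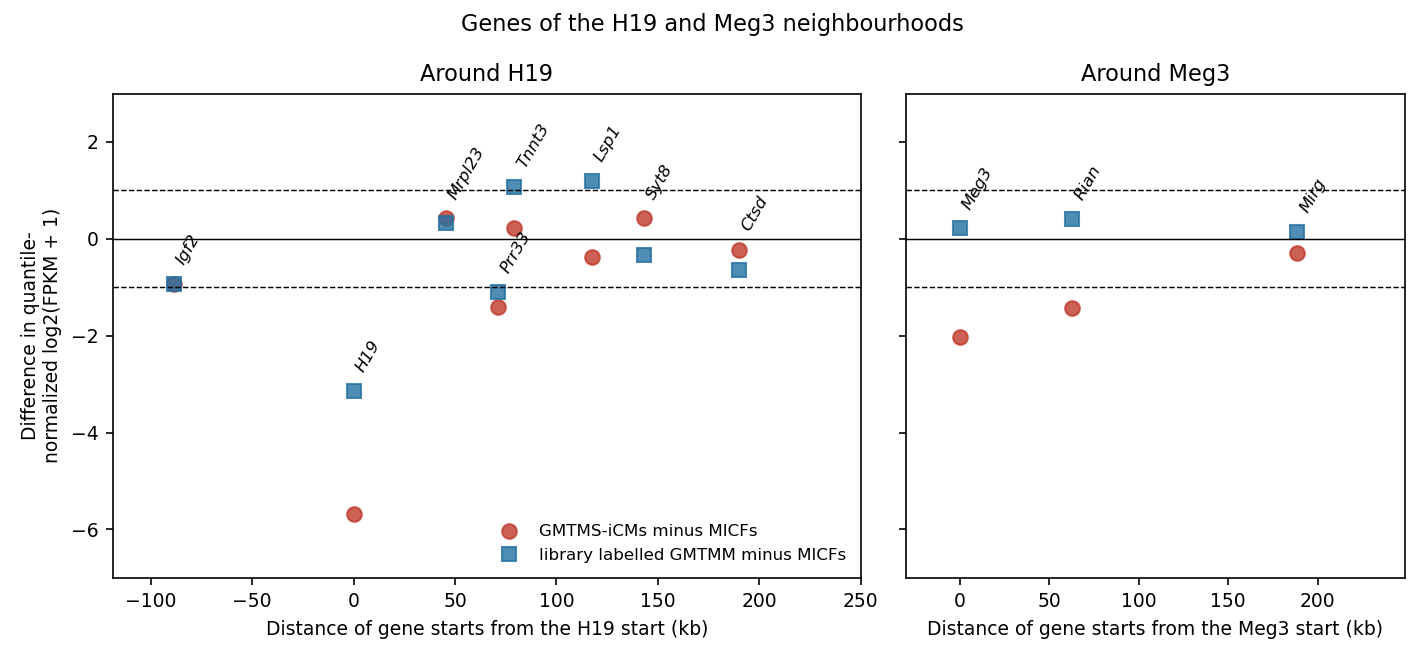
Differences in quantile-normalized log2(FPKM + 1) of the genes with over 10 counts within 200 kb of H19 (left) and of Meg3 (right), against the distance in kb between gene starts, positive in the direction of transcription; circles are GMTMS-iCMs minus MICFs and squares the GMTMM-labelled library minus MICFs. H19 at -5.69 and -3.14 lies below its neighbours, and the circle and square of Igf2 coincide at -0.93.

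Near Meg3, 104 genes were annotated within 200 kb, and 3 had over 10 counts in any library, namely Meg3, Rian and Mirg. Near Cdkn1c, 9 of 23 annotated genes had over 10 counts. There, Kcnq1, the potassium channel gene that hosts the imprinting control transcript, had 72, 6 and 108 counts and differences of -0.89 and 0.57 from MICFs, and Kcnq1ot1 had 55, 15 and 41 counts. Slc22a18, Nap1l4, Cars, Tnfrsf22, Tnfrsf26 and E230032D23Rik were not called in either comparison with MICFs, their differences running from -0.59 to 0.29.

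The genes most like H19 over the 3 libraries were found by the Euclidean distance between centred log2 values, among 10744 genes with at least 100 counts in any library. G0s2, an inhibitor of triglyceride lipase, was nearest at 0.464, with 56.4, 0.371 and 11.8 FPKM. Sox18, a transcription factor gene, followed at 0.481, and Clca3a1 at 0.675. Egfl7 (0.911), which is also in the endothelial list, Plvap (1.12), Tuba1a (1.45), Hspa12b (1.45), C130074G19Rik (1.497) and Prelp (1.501) were among the other genes in the first 10. Mest was rank 9 at 1.499, the only member among them. Grb10 ranked 323, Meg3 457, Plagl1 554, Rian 862 and Peg3 4274. With 3 libraries per gene this is a description of level patterns.

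A wider list of imprinted genes was read in the same way. Of 57 further imprinted genes listed, 56 were in the tables and Hymai was not. In GMTMS-iCMs against MICFs, 4 of the 56 were called lower and 2 higher, and the median difference was -0.01 over the 56 and -0.13 over the 37 with over 10 counts. The background was 2.72% of all genes lower and 3.13% higher, or 9.05% and 9.29% of genes with over 10 counts. With TMM-scaled log2 CPM, 18 were lower and 4 higher, beside 21.1% and 14.2% of genes with over 10 counts (7.84% and 6.58% of all genes). The 4 called lower on the main scale were Dcn (-3.25), Ndn (-1.81), Osbpl5 (-1.54) and Sgce (-1.39). Dcn encodes the matrix proteoglycan decorin and is also one of the fibroblast markers. Ndn, the necdin gene of the Prader-Willi region, had 385, 44 and 332 counts, and Sgce, encoding epsilon-sarcoglycan, had 717, 105 and 903. Gatm, an enzyme of creatine synthesis (907, 1772 and 908 counts), and Gab1, a receptor docking protein (799, 1412 and 1270), were the 2 called higher, at 1.18 and 1.17. Among the 56, 14 had 0 counts in GMTMS-iCMs and 12 in MICFs.

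Against MICFs, the GMTMM-labelled library had 0 of these 56 genes called lower and 2 called higher, Asb4 (41, 23 and 186 counts, difference 1.54) and Nap1l5 (14, 5 and 59 counts, difference 1.28). The background was 1.30% of all genes lower and 2.12% higher, or 3.61% and 6.55% of genes with over 10 counts. With TMM, 6 of the 56 were lower and 4 higher, beside 11% and 13.2% of genes with over 10 counts (4.86% and 6.54% of all genes). On the main scale the lowest difference was that of Ascl2 at -0.80, which was not called. Between the iCM libraries, 8 were called lower in GMTMS-iCMs, led by Dcn (-3.40) and Sgce (-1.91), and 2 higher, Gatm (1.20) and Ascl2 (1.05). Here the background was 2.84% of all genes lower and 2.33% higher, or 9.60% and 6.40% of genes with over 10 counts. With TMM, 16 of the 56 were lower and 4 higher, beside 18.9% and 10.6% of genes with over 10 counts (8.16% and 5.4% of all genes). By parental expression, the 26 genes expressed mainly from the maternal copy had 2 called lower and 1 higher in GMTMS-iCMs against MICFs. The 30 expressed mainly from the paternal copy also had 2 lower and 1 higher. For that comparison the background was 2.72% of all genes lower and 3.13% higher, or 9.05% and 9.29% of genes with over 10 counts.

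Genes that set or keep imprints were mostly within the threshold on the log2(FPKM + 1) scale, the only log2 scale computed for them. Of 25 regulators, 23 had over 10 counts, and 2 were called lower and 1 higher in GMTMS-iCMs against MICFs, beside a background of 9.05% and 9.29% of genes with over 10 counts. In the GMTMM-labelled library 0 were called, where the background was 3.61% lower and 6.55% higher. The 2 lower were Zfp57, whose protein binds the methylated copy of imprinting control regions (117, 4 and 74 counts, -1.43), and Uhrf1, which guides maintenance methylation at replication (151, 22 and 114 counts, -1.05). Tet2, an enzyme that oxidises methylated cytosine, was higher, with 763, 2937 and 946 counts and a difference of 2.24. Ctcf, the insulator protein gene, had 12.01, 10.9 and 8.12 FPKM and was not called in either comparison. Arid4a, at -0.99, had the difference farthest from 0 in the GMTMM-labelled library. Calls on this scale can leave out changes at low FPKM. Hells had 106, 12 and 71 counts. It was 5.70-fold lower in GMTMS-iCMs than in MICFs (3.13 to 11.4) but not called, at -0.73. By FPKM, 16 of the 25 regulators were lower in GMTMS-iCMs than in MICFs and 9 higher.

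In the insulin-like growth factor axis, in which Igf2 is a ligand and Grb10 acts below the receptors, 4 of 16 genes were called lower in GMTMS-iCMs against MICFs and 1 higher, beside the same 9.05% and 9.29%. Igfbp3, a secreted binding protein gene, fell from 43256 counts in MICFs to 699, a difference of -5.69, and had 41721 counts in the GMTMM-labelled library. Irs2, the insulin receptor substrate, was higher in both iCM libraries, with 534, 3038 and 2593 counts and differences of 2.76 and 2.28. Igf1, the other ligand, had 26.3, 34.1 and 17.3 FPKM, and its differences of -0.03 and -0.91 from MICFs were not called. Of the 16, 2 were called higher and 0 lower in the GMTMM-labelled library, beside 6.55% and 3.61% of genes with over 10 counts.

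Since Cdkn1c restrains the cell cycle and H19 and Igf2 are abundant in fetal and regenerating muscle, 2 further lists were read. The 11 proliferation genes listed include inhibitors of the cell cycle. In GMTMS-iCMs against MICFs, 1 was called higher, Mki67 (2.52), and 1 lower, Ccna2 (-1.27). The background was 9.29% higher and 9.05% lower of genes with over 10 counts. By FPKM, 2 of the 11 were higher and 9 lower, and the median difference was -0.37. Mki67 was also called higher (1.21) in the GMTMM-labelled library, where 0 were lower, beside a background of 6.55% higher and 3.61% lower. The 8 skeletal muscle markers were at or near 0 in every library, with summed FPKM of 0.0317, 0.572 and 0.163, and Myod1, Myog, Myf5 and Pax7 had 0 counts throughout.

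Promoter sequence from RefSeq (GRCm38.p6) was on hand for 8 of the 10 members, in windows of 250 bases before to 50 bases after each start. A window each of Meg3 and Peg3 held the cyclic AMP response element TGACGTCA, a palindrome that reads the same on both strands. The window of Rian, whose levels ran in the order of those of Meg3, did not hold these letters. The element began 57 bases before the start of Meg3 and 178 bases before that of Peg3. Some genes have several windows, and the element was in a window of 2 of the 8 members and of 2.03% of all 27025 gene symbols. Because this response element is known from many promoters, it is shown in capitals with 40 bases on either side, at chr12:109540899-109540986 on the plus strand for Meg3 and chr7:6730550-6730637 on the minus strand for Peg3.
Meg3: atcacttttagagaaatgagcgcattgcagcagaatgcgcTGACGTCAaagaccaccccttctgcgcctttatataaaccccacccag
Peg3: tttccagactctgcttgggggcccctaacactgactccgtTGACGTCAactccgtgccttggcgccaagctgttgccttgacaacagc
The letters GGGGGGCC, the first bases of the site known for the Plagl1 protein, were searched on both strands because Plagl1 is itself a member. They were in a window of 2 of the 8 members, Igf2 and Mest, and of 1.37% of all gene symbols. In the Mest window the match is on the opposite strand, shown in capitals at chr6:30737881-30737968.
Mest: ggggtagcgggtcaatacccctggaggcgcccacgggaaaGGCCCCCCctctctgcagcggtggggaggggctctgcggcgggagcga
These matches are letters in a window, and no binding was measured here.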

How the data were processed

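The members and gene lists were chosen with earlier results of these data known. Per the labels, RNA was extracted from MICFs and sorted iCMs and sequenced on Illumina libraries. The authors deposited a read count per gene, without normalization, and an FPKM per gene. The submitters' processing notes name HISAT2 2.0.5 and mm9, but the coordinates of 10 of 10 members equalled GENCODE M21 (GRCm38). The counting program, and how it treated strand and multiple matches, are not given in the sources used here. The library size behind the deposited FPKM came out as a DESeq2 size factor multiplied by the geometric mean total (14389264 for MICFs, 9287868 for GMTMS, 11680913 for GMTMM).

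FPKM were quantile-normalized over the 3 libraries with ties averaged, then log2 with a pseudocount of 1, as in the study's clustering, and a difference over 1 was called. No count model could be fitted to 1 library per condition, so there is no p-value. Intervals are exact at 95% (SciPy 1.17.1) and cover counting error only, and 3 counts were the floor (0.253, 0.282 and 0.252 CPM in MICFs, GMTMS and GMTMM). All members are named in the text. From the other lists the genes named are the largest rise and fall per comparison among genes with over 10 counts, the genes near H19, Meg3 and Cdkn1c, and the 10 genes nearest to H19. Other names fill counts of 5 or fewer, are neighbours by role (Ctcf, Igf1, Copg2), or were chosen after their values were seen (Mesp1, Xist, Y-linked genes, Hells). Member differences and the counts of members and other imprinted genes called were also computed under alternatives. These were log2 taken first, the quantile step left out, 0.1 as pseudocount, and genes reaching an FPKM of 1 in some library. Further ones were protein-coding genes alone, TMM log2 CPM (edgeR 4.0.16, prior count of 2), DESeq2 1.42.0 size factors and scaling to the library total. The median difference of genes with over 10 counts was computed under the same settings. A threshold of 2 was applied to the counts of members only, and the percentages of genes called were also computed with TMM. No alternative was computed for the other lists, the neighbouring genes outside the members or the ranks of likeness to H19. Python 3.11.15, pandas 2.3.3 and R 4.3.3 were used, and the steps were tested on simulated data.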

Additional observations from a re-analysis of the deposited data

How the results depend on the processing

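No paired analysis was possible because no condition has a second library, and for the same reason none could be left out. Of 225 member differences under the alternatives, 161 were labelled within counting error of the main value and 64 beyond it. A called direction was reversed in 0. The label of within counting error was fixed in advance for Igf2 and for Dlk1 against MICFs, since 0 counts leave that error without limit. Their differences are among the 161 and carry no weight as agreement. Igf2 in GMTMS-iCMs against MICFs ran from -6.00 to -0.90, across the threshold. H19 in GMTMS-iCMs against MICFs ran from -6.51 to -5.32, and in the GMTMM-labelled library from -3.25 to -2.66. In GMTMS-iCMs against MICFs, Mest ran from -4.85 to -4.08, Meg3 from -3.69 to -2.00, Rian from -3.44 to -1.39, Grb10 from -3.11 to -1.95 and Plagl1 from -2.85 to -1.42. The 2 sign changes of any size were Meg3 (GMTMM-labelled library against MICFs, -0.01 under library totals) and Cdkn1c (GMTMS-iCMs against the GMTMM-labelled library, 0.08 with protein-coding genes only). With a pseudocount of 0.1, Peg3 and Igf2 joined the members called lower in GMTMS-iCMs against MICFs (8 against 6). Both also joined with TMM, DESeq2 and library totals. In that order Peg3 was at -1.95, -1.88 and -2.14, and Igf2 at -5.09, -6.00 and -2.94. With TMM, 21.1% of genes with over 10 counts were called lower in that comparison, beside 9.05% on the main scale.

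Counts over protein-coding genes cover 7 members, without H19, Meg3 and Rian: 3 lower in GMTMS-iCMs against MICFs, 1 lower in the GMTMM-labelled library and 4 lower between the iCM libraries. Other counts that moved by over 1.5 times were as follows. Members called higher were 1 for GMTMS-iCMs against MICFs with DESeq2 size factors (Dlk1, 1 count) and 2 for the GMTMM-labelled library with TMM or DESeq2. Members called lower in that library were 1 without quantile normalization. With TMM, DESeq2 and library totals the count stayed at 2, but the members were H19 and Igf2. Mest was then not called, at -0.60, -0.58 and -0.88. At a difference over 2, that library had 1 lower and 0 higher, and 4 were lower between the iCM libraries. Other imprinted genes called lower in GMTMS-iCMs against MICFs were 4 in the main analysis but 15 with a pseudocount of 0.1, 18 with TMM, 18 with DESeq2 and 16 with library totals. Those called higher were 4, 5 and 1 with TMM, DESeq2 and library totals. In the GMTMM-labelled library against MICFs, 0 lower became 4, 6, 7 and 5 in the same order, and 2 higher became 4 with TMM and 4 with DESeq2. Between the iCM libraries, 8 lower became 16 with TMM, 16 with DESeq2 and 13 with library totals, and 2 higher became 4 with TMM, 6 with DESeq2 and 1 without quantile normalization. The cause of these changes was not tested. With library totals the median difference of genes with over 10 counts was -0.46 in GMTMS-iCMs and -0.27 in the GMTMM-labelled library against MICFs, beside -0.08 and -0.09 in the main analysis.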
